A study of Rattus norvegicus with 6 samples.

Results

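The genes described here encode the respiratory chain and the ATP synthase of mitochondria, as measured in 2 cell fractions of the rat renal inner medulla. They were chosen by gene symbol: probe sets whose only symbol in the platform annotation was a complex I name (Ndufa, b, c, s or v), Sdha to Sdhd, a Uqcr name, Cyc1, a Cox4 to Cox8 name or an Atp5 name. The rule found 97 probe sets for 87 of 14217 measured genes, and each gene was represented by its brightest probe set, by mean log2 value. Of the 87 genes, 34 were assigned to complex I, 4 to complex II, 8 to complex III, 18 to complex IV and 16 to complex V, which makes 80 subunits, regulators and isoforms, and 6 were complex I assembly factors (Ndufaf genes) and 1 a pseudogene, Cox6c-ps1. Ndufa4, named for complex I and now known as a complex IV subunit, and its paralog Ndufa4l2 were placed with complex IV. A further 7 probe sets that carried a matching symbol beside another were left out. RefSeq (GRCr8) lists 119 protein-coding genes that match the rule, 86 of them among the 87, and many of the remaining 33 are close copies (such as those of Ndufb3, Ndufb4 and Atp5mg) whose transcripts a probe set may share.

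RNA came from male Sprague-Dawley rats, all given 1 mg of furosemide intraperitoneally 30 min before they were killed. The inner medulla was digested with collagenase B and hyaluronidase for 75 min at 37 °C. Collecting duct cells of the inner medulla were enriched by low-speed centrifugation (IMCD, 3 arrays), and what stayed in the supernatant was the nonIMCD fraction (3 arrays). Rats were labelled as 6 weeks old on the array of IMCD replicate 1 and as 10 weeks old on the other 5, and 7 rats in all were used, so that how animals were pooled per array is unknown. Every rat had received the diuretic and all tissue was digested, so both fractions share these treatments. Values are intensities on the authors' linear scale, and differences are IMCD minus nonIMCD of log2(intensity + 16), tested with limma over all 31042 probe sets, with the threshold at an adjusted p of 0.05. The design speaks of 3 pairs, but nothing in the labels says which arrays share animals, so the main test has no pairing. Its p-values cover the spread among arrays only, which may be technical. Results with the replicate number as a block are given beside it, and there replicate 1 joins an array labelled 6 weeks with 1 labelled 10 weeks.

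As sums, markers of collecting duct cells were higher in the fraction labelled IMCD, and those of the other cell types examined in nonIMCD. Single markers did not all follow. IMCD arrays lay wholly above nonIMCD arrays for 1 of 4 thin limb markers and 1 of 8 interstitial cell and pericyte markers. They lay wholly below for the intercalated cell marker Slc26a4. The summed intensity of 10 principal cell markers was 189559 to 199745 in IMCD against 86733 to 115050.0 in nonIMCD. Of the 10, 9 rose, Avpr2 among them (10.0% of all genes did), and Aqp2 did not pass (0.29, adjusted p = 0.261). The nonIMCD arrays were higher in the summed markers of endothelial cells (57055 to 63102 against 10979 to 14369) and of leukocytes (44966 to 51873 against 678 to 976). The ratio of 3' to 5' signal in 3 rat control transcripts, a measure of RNA integrity, averaged 0.69 ± 0.03 on the log2 scale over the IMCD arrays against 1.35 ± 0.14 over the nonIMCD arrays (SD, n = 3), and this difference in RNA quality went with every comparison that follows.

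Mitochondria make ATP by passing electrons along the inner membrane. Complex I takes electrons from NADH and complex II from succinate, both hand them to ubiquinone, complex III passes them to cytochrome c, and complex IV (cytochrome c oxidase) delivers them to oxygen. Complexes I, III and IV pump protons outward, and complex V, the ATP synthase, lets the protons return and makes ATP. A few core subunits are encoded by mitochondrial DNA and lie outside the rule. The inner medulla is poorly oxygenated and known for its reliance on glycolysis, and the collecting duct there spends ATP on sodium transport.

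The choice of the 87 genes by name did not use sequence. Of the 4 promoters shown, those of Ndufa3, Atp5if1 and Ndufa4l2 belong to genes whose differences are described. That of Atp5me (difference 0.16, adjusted p = 0.406) was chosen for its motif matches. No enrichment was tested. RefSeq promoters (GRCr8, 250 bases before to 50 after the start, 1 per gene) were matched for 78 of the 87 genes, and both strands were searched. The element of nuclear respiratory factor 1 (the letters GCGC, any base, then TGCGC) was found in 19.2% of the 78, against 8.49% of 11733 measured genes with a promoter. The ETS element bound by the GABP family (CCGGAAG) was found in 28.2% against 15.1%, and the YY1 element (AANATGGC) in 41.0% against 8.86%. The element of estrogen-related receptors (TNAAGGTCA) was found in 3 of the 78 (3.85% against 0.673%), and the SP1 box (GGGCGG) in 43.6% against 57.5%. Of the 10 genes that passed the threshold, 1 held the NRF1 element, 1 the ETS element, 4 the YY1 element, 6 the SP1 box and 0 the estrogen-related receptor element. The motifs differ in letters and none contains another, but matches may lie side by side. A match of letters is a description and no evidence of binding.

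The 150 bases before the start are printed 5′ to 3′ for the genes with the largest and second largest differences past the threshold (Ndufa3, chr1:74515559-74515708 on the - strand, and Atp5if1, chr5:150026678-150026827 on the - strand), for Atp5me, which held the NRF1, ETS and SP1 elements there (chr14:1464710-1464859 on the + strand), and for Ndufa4l2, which went in the opposite direction (chr7:65242019-65242168 on the + strand). Capitals mark motif matches on either strand.
Ndufa3: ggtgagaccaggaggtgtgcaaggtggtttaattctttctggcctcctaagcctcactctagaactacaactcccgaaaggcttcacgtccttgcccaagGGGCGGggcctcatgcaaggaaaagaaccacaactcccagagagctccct
Atp5if1: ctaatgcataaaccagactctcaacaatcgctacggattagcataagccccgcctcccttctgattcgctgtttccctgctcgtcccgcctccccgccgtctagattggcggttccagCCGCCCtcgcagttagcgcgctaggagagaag
Atp5me: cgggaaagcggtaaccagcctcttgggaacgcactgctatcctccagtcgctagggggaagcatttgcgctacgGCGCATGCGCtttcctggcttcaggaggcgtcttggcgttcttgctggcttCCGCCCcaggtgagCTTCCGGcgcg
Ndufa4l2: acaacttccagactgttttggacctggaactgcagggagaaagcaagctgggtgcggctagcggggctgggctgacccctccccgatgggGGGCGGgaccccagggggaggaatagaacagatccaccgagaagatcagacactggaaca
Ndufa3, Atp5if1 and Ndufa4l2 each held 1 SP1 box in this window and no other of the searched elements, and Ndufa3 and Ndufa4l2 also had a YY1 match elsewhere in the 300 bases.

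The first question was whether transcripts of oxidative phosphorylation differ between collecting duct cells and the other cells of the inner medulla. With the deposited scaling they were slightly higher in IMCD across most of the set, and few single genes passed the test. Of 87 genes, 10 rose (11.5%), 0 fell (1, Ndufa4l2, at an unadjusted p under 0.05) and 77 did not pass; over all 14217 genes 10.0% were called higher and 15.7% lower. The 10 were Ndufa3, Ndufb6, Ndufc2, Ndufc1 and Ndufa5 of complex I, Sdhc of complex II, Uqcr10 of complex III, Ndufa4 of complex IV, and Atp5if1 and Atp5mg of complex V. The share called higher was thus near the background, while the differences leaned 1 way: 75 of 87 were above 0 and the median was 0.22, against -0.09 over all genes. IMCD arrays all lay above nonIMCD arrays for 49 of the 87 genes (20.0% of all genes and 39.5% of genes with a mean intensity of at least 2000 did so) and all below for 2, Ndufa4l2 and Cox7a2l (28.7% of all genes and 27.2% of those bright ones). In RNA from mixed cells, fewer cells of a type and less RNA per cell cannot be told apart.

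**Figure D1:**
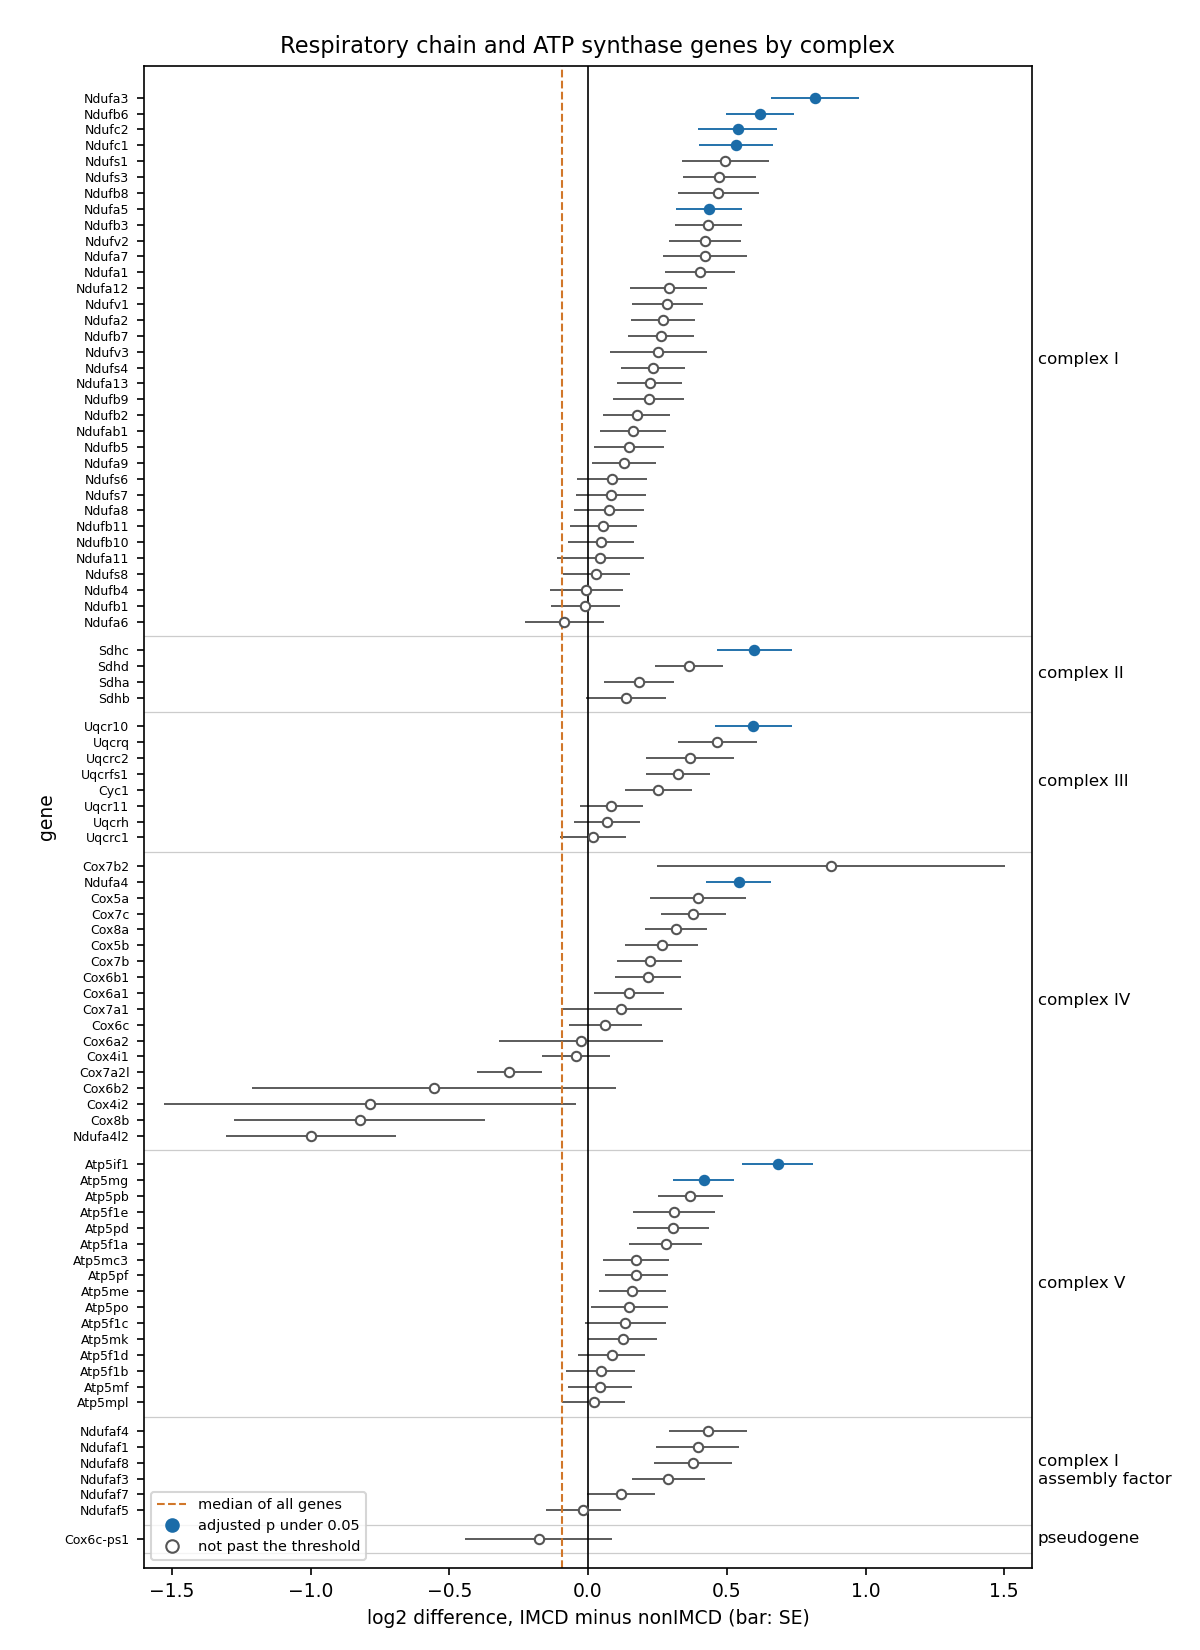
Log2 difference (IMCD minus nonIMCD, x axis) of each of the 87 genes (y axis) with its SE from limma, grouped by complex; filled points passed an adjusted p of 0.05 and the dashed line is the median of all genes. Most points lie right of 0 and of the dashed line at -0.09, the 10 filled points lie between 0.42 and 0.82, and the widest bars belong to dim complex IV isoforms.

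The size of the shift, and how many genes shared it, rested on the scaling of the arrays. With each array centred on its median, 50 genes were higher and 0 lower (20.2% and 10.2% of all genes), and the median of the 87 was 0.51 against 0.19 over all genes. After quantile normalization 7 were higher and 1, Cox7a2l, lower (11.7% and 12.8% of all genes), and the median was 0.098 against 0.018. Its excess over the median of all genes was therefore 0.31 with the deposited scaling or median centring and 0.080 after quantile normalization. With median centring 83 of the 87 differences were above 0 and 4 below. After quantile normalization 56 were above 0 and 31 below, with 10 and 8 in complex IV and 8 and 8 in complex V. Most of the genes are bright, and bright genes as a whole lay higher in IMCD: 3596 genes with a mean intensity of at least 2000, a limit chosen after the data were seen, had a median of 0.08, with 20.6% called higher and 13.8% lower. The 70 respiratory genes above that limit had a median of 0.22, and 9 of them (12.9%) were called higher.

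**Figure D2:**
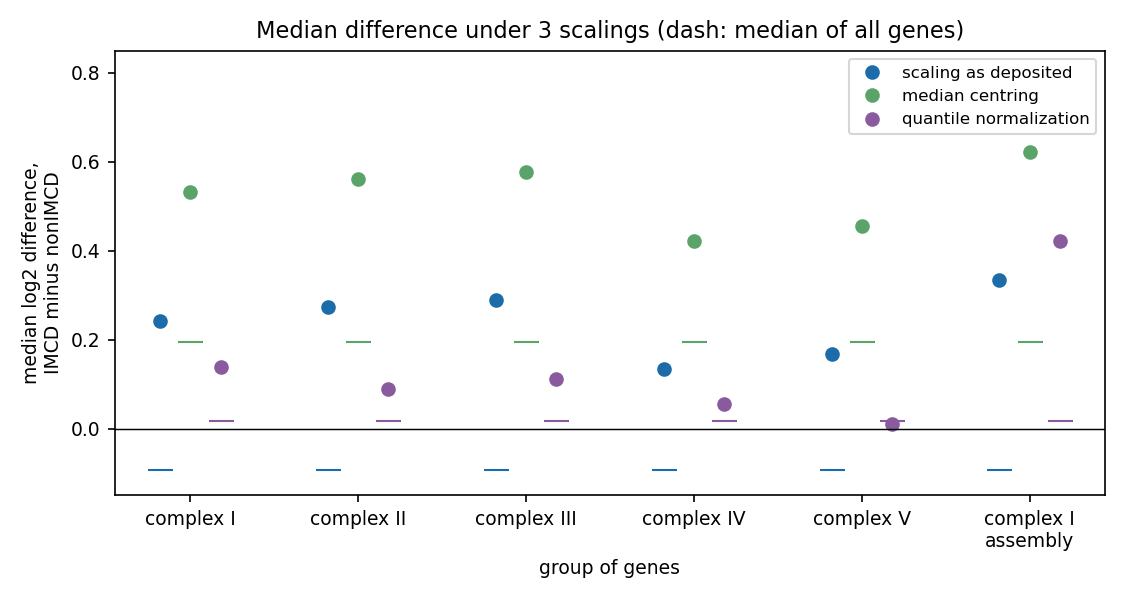
Median log2 difference (y axis) of each complex and of the complex I assembly factors (x axis) under 3 scalings of the arrays, with a dash for the median of all genes under the same scaling. Medians of complexes I to III lie above the matching dash under all 3 scalings, and that of complex V, 0.0094 after quantile normalization, lies below its dash there.

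The 10 calls were narrow. With the replicate number of the titles as a block, which pairs equally numbered arrays, 3 genes were higher (Ndufa3, Atp5if1 and Ndufb6; 6.99% of all genes) and 1 was lower (Ndufa4l2; 11.2%). The number of higher genes was 1 without IMCD replicate 1, 2 without IMCD replicate 2, 2 without IMCD replicate 3, 1 without nonIMCD replicate 1, 1 without nonIMCD replicate 2 and 8 without nonIMCD replicate 3. Sdhc, Uqcr10, Ndufa4, Ndufb6, Ndufc1 and Ndufc2 each passed in 1 of these 6 fits, that without nonIMCD replicate 3. Quantile normalization left 4 of the 10 (Ndufa3, Atp5if1, Ndufb6 and Ndufa5) past the threshold.

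**Figure D3:**
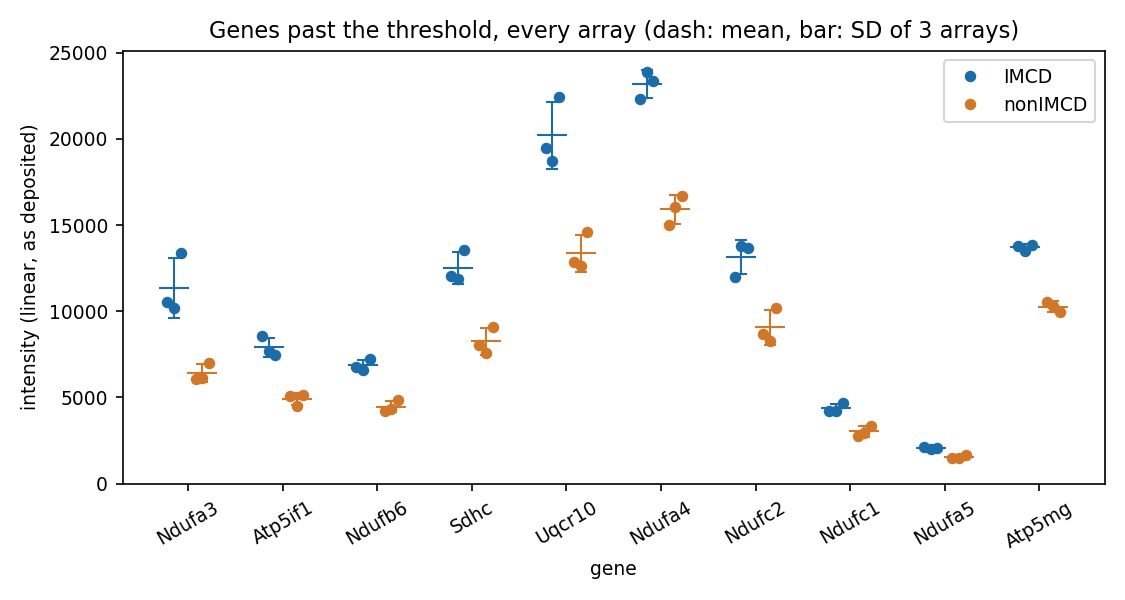
Deposited intensity (y axis, linear) of the 10 genes past the threshold (x axis) on each of the 3 IMCD and 3 nonIMCD arrays, with the mean and SD of each fraction. The fractions do not overlap for any of the 10; Ndufa3 reads 10199 to 13359.5 in IMCD and 6083 to 6991 in nonIMCD.

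Complex I, the NADH dehydrogenase and largest of the complexes, contributed 5 of the 10 calls. Of its 34 genes 5 rose, 0 fell and 29 did not pass, and the median was 0.24 (range -0.09 to 0.82). The 5 compare with 10.0% of all genes called higher. IMCD arrays lay wholly above nonIMCD arrays for 22 of the 34, beside 20.0% of all genes and 39.5% of bright ones. All 5 that rose are among the 28 accessory subunits, which surround the catalytic core and had a median of 0.23.

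Ndufa3 had intensities of 10551, 10199 and 13359.5 on the IMCD arrays and 6083, 6156 and 6991 on the nonIMCD arrays, a 1.77-fold difference or 0.82 ± 0.16 (SE, adjusted p = 0.017) on the log2 scale. IMCD replicate 3 was the highest of its arrays. The call held with the replicate block (adjusted p = 0.0333) and was lost without nonIMCD replicate 1 (0.78, adjusted p = 0.0619) or nonIMCD replicate 2 (0.79, adjusted p = 0.0571). Ndufb6, a subunit of the membrane arm, had 6743, 6620.0 and 7204 on the IMCD arrays and 4234, 4314 and 4824 on the nonIMCD arrays, a difference of 0.62 ± 0.12 (SE, adjusted p = 0.0185). Its arrays were close within each fraction. Its adjusted p was 0.0489 with the block, and 0.031 to 0.0669 without 1 array, under the threshold only without nonIMCD replicate 3.

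Ndufc1 and Ndufc2, which sit together in the membrane arm, differed by similar amounts. Ndufc1 had 4234, 4240.3 and 4688 on the IMCD arrays and 2789, 2938 and 3362 on the nonIMCD arrays, a difference of 0.53 ± 0.13 (SE, adjusted p = 0.0381). Ndufc2 had 12001, 13815 and 13650.4 on the IMCD arrays and 8701, 8281 and 10215 on the nonIMCD arrays, a difference of 0.54 ± 0.14 (SE, adjusted p = 0.0458). Ndufa5, a subunit of the peripheral arm, had 2135, 2032 and 2062 on the IMCD arrays and 1489.8, 1463 and 1646 on the nonIMCD arrays, a difference of 0.44 ± 0.12 (SE, adjusted p = 0.0493). The fractions did not overlap for any of the 3, but with the block they had adjusted p = 0.0643, 0.0823 and 0.0993. Ndufa5 passed in 0 of the 6 fits without 1 array (adjusted p = 0.0641 to 0.143), and Ndufc1 and Ndufc2 passed only without nonIMCD replicate 3.

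Of the 6 measured core subunits, most of which carry the flavin or iron-sulfur clusters, 0 passed in limma (3 had an unadjusted p under 0.05), and their median was 0.35. Ndufs1, which holds several iron-sulfur clusters, had 5769, 5607 and 6799 on the IMCD arrays and 4095, 3865 and 4946 on the nonIMCD arrays, a difference of 0.50 ± 0.16 (SE, adjusted p = 0.0768). Its fractions did not overlap. Ndufs3 (0.47, adjusted p = 0.0524) and the flavoprotein subunit gene Ndufv2 (0.42, adjusted p = 0.0695) were also just short of the threshold. Ndufv1, which binds NADH and the flavin, differed by 0.29 (adjusted p = 0.18), Ndufs7 by 0.08 (adjusted p = 0.696) and Ndufs8 by 0.03 (adjusted p = 0.887), and the arrays of the last 2 overlapped. The accessory subunit Ndufa1 had 25879 ± 1606 for IMCD against 19571 ± 1409 for nonIMCD (SD, n = 3) and a difference of 0.40 (adjusted p = 0.075).

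At the other end of complex I, Ndufa6 had 5533, 4877 and 5287 on the IMCD arrays and 6162, 5668 and 4879 on the nonIMCD arrays, a difference of -0.09 (adjusted p = 0.719). Ndufb1 (-0.01, adjusted p = 0.964) and Ndufb4 (-0.01, adjusted p = 0.982) were the other 2 below 0. All 3 overlapped between the fractions. The dimmer probe set of Ndufa7 gave 0.70 (adjusted p = 0.0689) beside 0.42 (adjusted p = 0.105) for the brighter one.

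Assembly factors build complex I and are not part of the finished enzyme. Of the 6 Ndufaf genes measured 0 passed, with a median of 0.33. In the deposited intensities 4 of them had IMCD arrays wholly above nonIMCD arrays, as did 20.0% of all genes. Ndufaf4 had 1543, 1476 and 1842 on the IMCD arrays and 1267, 1187 and 1125 on the nonIMCD arrays, a difference of 0.43 (adjusted p = 0.0825). Ndufaf1 differed by 0.40 (adjusted p = 0.119), Ndufaf8 by 0.38 (adjusted p = 0.116), Ndufaf3 by 0.29 (adjusted p = 0.183), Ndufaf7 by 0.12 (adjusted p = 0.539) and Ndufaf5 by -0.02 (adjusted p = 0.943). Their median was 0.42 after quantile normalization, where Ndufaf1 and Ndufaf4 passed (adjusted p = 0.029 and 0.0427), beside 11.7% of all genes called higher. The median of all genes went from -0.09 to 0.018, and the excess over it was 0.43 before and 0.40 after. The subunit medians were smaller after quantile normalization, but the dimmer subunit gene Ndufb8 went from 0.47 to 0.67. The median of mitochondrial ribosomal protein genes went from 0.05 to 0.10.

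Complex II, succinate dehydrogenase, also works in the citrate cycle and has 4 subunits. Of the 4 genes 1 rose and 0 fell, beside 10.0% and 15.7% of all genes. The membrane anchor genes had the larger differences, with a median of 0.27 over the 4; whether they exceed those of the catalytic genes was not tested. The anchor Sdhc had 12071, 11877 and 13546 on the IMCD arrays and 8069, 7572 and 9109 on the nonIMCD arrays, a 1.51-fold difference or 0.60 ± 0.14 (SE, adjusted p = 0.0281), and was the only 1 of the 4 past the threshold (adjusted p = 0.0516 with the block). The anchor Sdhd had 8590.0, 8948 and 9964 on the IMCD arrays and 6885, 7257 and 7175 on the nonIMCD arrays, a difference of 0.36 ± 0.12 (SE, adjusted p = 0.089), and its second probe set gave 0.48 (adjusted p = 0.0628). Neither anchor's fractions overlapped in its brighter probe set. The flavoprotein Sdha had 9305, 8893 and 10280.2 on the IMCD arrays and 8352, 7896 and 8792 on the nonIMCD arrays, a difference of 0.18 (adjusted p = 0.356). The iron-sulfur subunit Sdhb had 7358, 7008 and 8235 on the IMCD arrays and 6371, 6425 and 7799 on the nonIMCD arrays, a difference of 0.14 (adjusted p = 0.557). Sdha did not overlap between the fractions, with its lowest IMCD array at 8893 and its highest nonIMCD array at 8792, and Sdhb did.

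In complex III, the cytochrome bc1 complex, 1 of 8 genes rose and 0 fell, beside 10.0% and 15.7% of all genes, and the median was 0.29. Uqcr10, a small accessory subunit, had 19500.0, 18708 and 22410.3 on the IMCD arrays and 12847, 12612 and 14615 on the nonIMCD arrays, a 1.51-fold difference or 0.60 ± 0.14 (SE, adjusted p = 0.0305, and 0.0516 with the block). Uqcrq, another small subunit, differed by 0.47 (adjusted p = 0.0705). The catalytic subunits among the 8 were the Rieske protein Uqcrfs1 (0.33, adjusted p = 0.104) and cytochrome c1, Cyc1, which had 9933, 10006 and 10569 on the IMCD arrays and 8150.4, 9178 and 8279 on the nonIMCD arrays and differed by 0.25 (adjusted p = 0.196). Both had IMCD arrays wholly above the nonIMCD arrays. The core proteins gave 0.37 (adjusted p = 0.163) for Uqcrc2 and 0.02 (adjusted p = 0.935) for Uqcrc1, and a second Uqcrc2 probe set gave 1.22 ± 0.34 (SE, adjusted p = 0.0546). Uqcrh (0.07, adjusted p = 0.735) and Uqcr11 (0.08, adjusted p = 0.651) were the remaining measured genes, and Uqcrb had no single-symbol probe set.

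Complex IV had 11 genes above 0 and 7 below, 4 of the 7 with arrays under the negative controls. Of 18 genes 1 rose (5.56%, beside 10.0% of all genes), 0 fell (15.7% of all genes) and 17 did not pass, and the median was 0.13. For 13 of them every array lay above the highest negative control (an intensity of 78.4), and 10 of these 13 were above 0 and 3 below, with a median of 0.22. Ndufa4 had 22330.3, 23888 and 23371 on the IMCD arrays and 15008, 16029 and 16708 on the nonIMCD arrays, a 1.46-fold difference or 0.54 ± 0.12 (SE, adjusted p = 0.0243, and 0.0616 with the block). Its fractions were far apart compared with their spread.

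The ubiquitous Cox subunits did not pass. Cox4i1, the common form of subunit 4, had 27044, 29233 and 29471 on the IMCD arrays and 28928, 27934 and 31601 on the nonIMCD arrays, a difference of -0.04 ± 0.12 (SE, adjusted p = 0.835), with overlapping fractions. Cox8a differed by 0.32 (adjusted p = 0.102), Cox7c by 0.38 (adjusted p = 0.072), Cox5a by 0.40 (adjusted p = 0.167) and Cox5b by 0.27 (adjusted p = 0.215). Cox7b (0.22, adjusted p = 0.242), Cox6b1 (0.22, adjusted p = 0.256), Cox6a1 (0.15, adjusted p = 0.46) and Cox6c (0.06, adjusted p = 0.776) followed. Cox7a2l, which joins complexes III and IV into supercomplexes, went the other way with 8108, 7581 and 8092 on the IMCD arrays and 9496, 9229 and 10245 on the nonIMCD arrays, a difference of -0.28 ± 0.12 (SE, adjusted p = 0.149). Its IMCD arrays all lay below its nonIMCD arrays, and it passed after quantile normalization (-0.46, adjusted p = 0.0379), while its difference was 0.0047 with median centring.

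Isoforms that respond to low oxygen are known for Cox4i2 and Ndufa4l2. Ndufa4l2 had 129.7, 188 and 257 on the IMCD arrays and 286, 393 and 508 on the nonIMCD arrays, a difference of -0.998 ± 0.31 (SE, adjusted p = 0.0708). The IMCD arrays lay wholly below the nonIMCD arrays. It did not pass in the main comparison, and it passed with the replicate block (adjusted p = 0.0223). Cox4i2 had 16.4, 84.8 and 122 on the IMCD arrays and 172, 203 and 40 on the nonIMCD arrays, a difference of -0.78 ± 0.74 (SE, adjusted p = 0.507). Its fractions overlapped, and 1 array in each lay under the highest negative control. Ndufa4 and Ndufa4l2 thus differed in opposite directions between the fractions, which was not tested as such. Ndufa4l2 is also known from pericytes, and the summed intensity of 8 interstitial cell and pericyte markers was 4935 to 5449 in IMCD and 34025 to 37421 in nonIMCD, with 0 of the 8 under the negative control on every array; their part in the result was not tested.

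Isoforms of striated muscle and testis were near or under the negative controls. The muscle forms Cox6a2 (9.97, 16.3 and 20.6 in IMCD, 21.8, 5.11 and 24.7 in nonIMCD) and Cox8b (4.81, 11.1 and 3.65 and 50.5, 30 and 4.09) lay under 78.4 on all 6 arrays. The testis forms Cox6b2 (4.66 to 87) and Cox7b2 (5.18 to 107) did so on 5 arrays each. Cox7a1, the muscle form of subunit 7a, read 120.1 to 212 with a difference of 0.12 (adjusted p = 0.741), and the pseudogene Cox6c-ps1 differed by -0.18 (adjusted p = 0.685). No difference could be read from such signals: the 4 dimmest gave differences of -0.82 to 0.87 with adjusted p between 0.256 and 0.962. Cox8b passed without nonIMCD replicate 3 (-1.31, adjusted p = 0.0296), with every array still under the negative control.

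**Figure D4:**
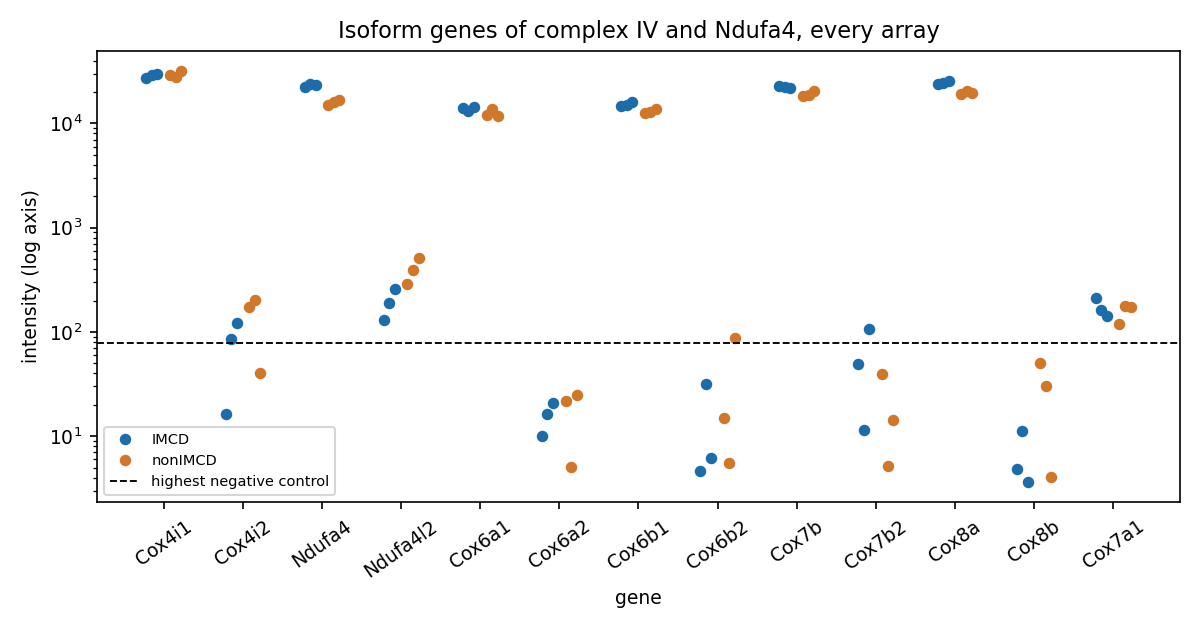
Intensity (y axis, log scale) of isoform genes of complex IV and of Ndufa4 and Ndufa4l2 (x axis) on each IMCD and nonIMCD array; the dashed line is the highest negative control, 78.4. Cox6a2 and Cox8b lie under the line on all 6 arrays, and Ndufa4l2 lies above it with every nonIMCD array over every IMCD array.

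In complex V, the ATP synthase, 2 of 16 genes rose, 0 fell and 14 did not pass, with a median of 0.17. The 2 make 12.5%, near the 10.0% of all genes called higher, and 15.7% of all genes were called lower. The gene with the largest difference was that of the inhibitor Atp5if1, a small protein that blocks the synthase from running backwards and splitting ATP. It had 8553, 7675 and 7484 on the IMCD arrays and 5069, 4525 and 5144 on the nonIMCD arrays, a 1.61-fold difference or 0.68 ± 0.13 (SE, adjusted p = 0.0155). The fractions did not overlap, and the call held with the block (adjusted p = 0.048) and after quantile normalization (adjusted p = 0.0319). It was lost without IMCD replicate 1 (0.63, adjusted p = 0.059). Its probe set type may detect more than 1 transcript, and the other 2 Atp5if1 probe sets, with mean intensities of 113 to 197 in IMCD, gave 0.17 (adjusted p = 0.734) and 0.23 (adjusted p = 0.512). The mean over its 3 probe sets gave 0.36 (adjusted p = 0.117).

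Atp5mg, subunit g of the membrane part, had 13763, 13486 and 13864 on the IMCD arrays and 10540.3, 10318 and 9936 on the nonIMCD arrays, a difference of 0.42 ± 0.11 (SE, adjusted p = 0.0467) and adjusted p = 0.0988 with the block. The arrays of each fraction were within a narrow range and did not overlap, though the call was lost without any 1 array (adjusted p = 0.101 to 0.131). Atp5pb, Atp5pd and Atp5f1e gave 0.37 (adjusted p = 0.0757), 0.31 (adjusted p = 0.154) and 0.31 (adjusted p = 0.197). The 5 genes of the catalytic part, F1 (Atp5f1a to Atp5f1e), had a median of 0.13, and 0 passed. The catalytic beta subunit Atp5f1b had 24581, 27444 and 28624 on the IMCD arrays and 25086, 27161 and 25767 on the nonIMCD arrays, a difference of 0.05 ± 0.12 (SE, adjusted p = 0.832), with overlapping fractions. Atp5mc3, a proton-carrying ring subunit, differed by 0.17 (adjusted p = 0.356). Atp5mpl, Atp5mf and Atp5f1b were the lowest of the complex, at 0.02 (adjusted p = 0.92), 0.04 (adjusted p = 0.827) and 0.05.

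Averaged over genes with the deposited scaling, 4 of the complexes separated the arrays, and by the median over genes all 5 did. Mean deviation from each gene's own mean over the 6 arrays was 0.10 to 0.17 in IMCD and -0.15 to -0.11 in nonIMCD for complex I, 0.087 to 0.28 and -0.22 to -0.054 for complex II, 0.10 to 0.20 and -0.19 to -0.065 for complex III, and 0.047 to 0.16 and -0.12 to -0.079 for complex V. Complex IV, with its dim isoforms, ranged from -0.14 to 0.12 and from -0.057 to 0.031, so its fractions overlapped. By the median over its genes the complex IV values were 0.058 to 0.15 and -0.12 to -0.018, without overlap. Within IMCD, replicate 3 had the highest mean in all 5 complexes. Whether the complexes differ from one another was not tested.

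**Figure D5:**
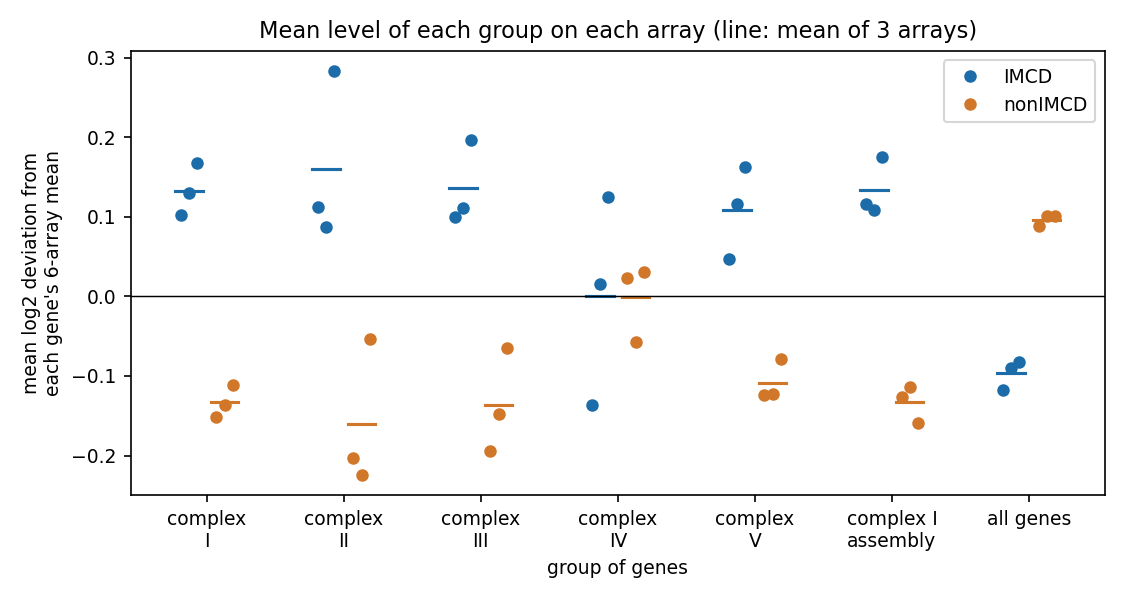
Mean log2 deviation of each array from the genes' 6-array means (y axis) for each complex, the complex I assembly factors and all genes (x axis); a line marks the mean of 3 arrays. IMCD arrays lie above nonIMCD arrays for complexes I, II, III and V and the assembly factors, overlap with them in these means for complex IV, and lie below them over all genes.

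Of 48 other assembly factors and cofactor enzymes of the chain, 7 rose and 1 fell (14.6% and 2.08%, beside 10.0% and 15.7% of all genes), with a median of 0.07. With median centring 13 rose (27.1%, beside 20.2% of all genes) and 0 fell (10.2% of all genes). Coa3, an assembly factor of complex IV, had 6724 ± 925 for IMCD against 3126 ± 129 for nonIMCD (SD, n = 3), or a log2 difference of 1.09 ± 0.14 (SE, adjusted p = 0.00468). The copper chaperone Cox11 (0.74, adjusted p = 0.0216), the complex III factor Uqcc2 (0.72, adjusted p = 0.00895) and Nubpl, which inserts iron-sulfur clusters into complex I (0.66, adjusted p = 0.0178), also rose. The 1 that fell, named because it was the only one, was Cox19, a copper handling factor (-0.65, adjusted p = 0.0297); it did not pass with median centring or quantile normalization (adjusted p = 0.129 and 0.0743). With the block 3 rose and 0 fell, and Nubpl did not pass (adjusted p = 0.0619).

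Regulators of mitochondrial genes differed by member. Of 23 measured 2 rose (8.70%, beside 10.0% of all genes), 1 fell (4.35%, beside 15.7%) and 20 did not pass. Their median was -0.10, which was 0.18 with median centring and 0.099 after quantile normalization. The coactivator Ppargc1a (PGC-1 alpha) had 1723 ± 194 for IMCD against 941 ± 199 for nonIMCD (SD, n = 3), or a log2 difference of 0.88 ± 0.20 (SE, adjusted p = 0.0275). Its partner, the estrogen-related receptor Esrrg, had 1975 ± 198 for IMCD against 987 ± 15.3 for nonIMCD (SD, n = 3), or a log2 difference of 0.98 ± 0.13 (SE, adjusted p = 0.00446). A second receptor of that family, Esrrb, fell, with 368 ± 82.6 for IMCD against 1013 ± 188 for nonIMCD (SD, n = 3) and a difference of -1.43 ± 0.22 (SE, adjusted p = 0.00861). All 3 also passed with the block, with median centring and after quantile normalization. Nrf1 (-0.12, adjusted p = 0.673), Esrra (0.01, adjusted p = 0.98) and the mitochondrial transcription factor Tfam (0.09, adjusted p = 0.709) did not pass and were named after their values were seen.

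A further list held carriers, enzymes and regulators of the entry of pyruvate into mitochondria, which feeds the chain. Of 12 pyruvate entry genes 6 rose (10.0% of all genes did) and 0 fell (15.7%), with a median of 0.45; with the block 4 rose, and Pdhx and Pdk3 did not pass (adjusted p = 0.0962 and 0.0925). Pdp1, the phosphatase that switches pyruvate dehydrogenase on, had 4774 ± 698 for IMCD against 1319 ± 94.9 for nonIMCD (SD, n = 3), or a log2 difference of 1.84 ± 0.16 (SE, adjusted p = 0.00123). Pyruvate carboxylase, Pc, had 999 ± 80.9 for IMCD against 422 ± 15 for nonIMCD (SD, n = 3), or a log2 difference of 1.21 ± 0.12 (SE, adjusted p = 0.00201). The second phosphatase Pdp2 (0.86, adjusted p = 0.00927) and the kinase Pdk2, which switches the enzyme off (0.76, adjusted p = 0.00706), rose as well, so genes of opposite action were among those that rose. These 4 also passed with the block and after quantile normalization. Among those that did not pass were the pyruvate carriers Mpc1 (0.13, adjusted p = 0.495) and Mpc2 (-0.01, adjusted p = 0.971). The dehydrogenase subunit Pdha1 (0.07, adjusted p = 0.794) and the kinase Pdk4 (-0.59, adjusted p = 0.0634) did not pass either.

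Of 12 citrate cycle genes 1 rose (Suclg1, 0.68 ± 0.16 SE, adjusted p = 0.0332) and 0 fell, with a median of 0.25, beside 10.0% and 15.7% of all genes. With median centring 9 rose and 0 fell, beside 20.2% and 10.2% of all genes. Of genes with a mean intensity of at least 2000, 40.3% were called higher and 8.59% lower under that setting. After quantile normalization 0 rose (Suclg1 had adjusted p = 0.0624) and Idh2 fell (-0.53, adjusted p = 0.0288). Of 12 carriers and pores 2 rose and 0 fell, with a median of 0.19. The 2 were the uncoupling protein gene Ucp2 (0.70, adjusted p = 0.0111) and the aspartate-glutamate carrier Slc25a13 (0.57, adjusted p = 0.0486). With the block Slc25a13 did not pass (adjusted p = 0.0597). With median centring 8 of the 12 rose, beside 20.2% of all genes and 40.3% of bright ones. Of 73 mitochondrial ribosomal protein genes 4 rose and 2 fell (5.48% and 2.74%, beside 10.0% and 15.7%), with a median of 0.05. The counts were 18 and 1 with a median of 0.34 under median centring, 5 and 1 with 0.10 after quantile normalization, and 2 and 1 with the block. Of 49 genes chosen by a cytosolic ribosomal protein symbol, 0 rose and 20 fell (40.8%, beside 15.7% of all genes), with a median of -0.47. S6 kinase genes were left out after values were seen. The 49 include the pseudogenes Rpl37-ps2 and Rps4x-ps1 and paralogs such as Rpl7l1 and Rpl3l. Rpl37-ps2 was among the 20 that fell (-1.18, adjusted p = 0.0142). The median of the 49 was -0.18 with 1 higher and 2 lower under median centring. It was -0.30 with 0 higher and 17 lower after quantile normalization, and 9 fell with the block.

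Markers of tubule cells rich in mitochondria differed between the fractions. Beside the counts that follow, 10.0% of all genes were called higher and 15.7% lower. Summed markers of intercalated cells (6 measured) were 9990.2 to 18228 in IMCD and 4839.7 to 9493 in nonIMCD. Of the 6, 2 rose, Atp6v0a4 and Foxi1, and with the block Foxi1 had adjusted p = 0.0532. Atp6v1g3 (4968 ± 1808 in IMCD against 2555 ± 1051 in nonIMCD, SD) overlapped between the fractions (adjusted p = 0.132). Slc26a4 was below 0 (-0.66, adjusted p = 0.0832), with IMCD arrays wholly below nonIMCD arrays and 2 arrays under the highest negative control. Summed markers of the thick ascending limb (8 measured) were 4279.6 to 9275 and 17826 to 22222, and 4 of the 8 fell, while 1 was above 0 (0.65). Those of the proximal tubule (9 measured) were 805 to 893 and 4026 to 5262, and 2 of the 9 fell, Lrp2 (322 against 3429) and Gatm (142 against 909), which made up most of the nonIMCD sum. Slc22a6 (0.61, adjusted p = 0.316) and Slc34a1 (0.51, adjusted p = 0.387) were above 0, and Fbp1 and Slc5a2 were under the negative control on all arrays. Hybridisation controls, added to each sample, had a mean log2 intensity of 12.73 ± 0.11 in IMCD against 13.06 ± 0.30 in nonIMCD (SD, n = 3). The part of these cells, of the controls and of RNA quality in the differences between the fractions was not tested.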

How the data were processed

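RNA from 6 preparations was labelled with biotin and hybridised to Affymetrix rat expression arrays, about 3 µg per array, per the labels. The authors deposited a linear intensity for each probe set on each array, with no log transform; the 2% trimmed mean was 1000.31 to 1000.37 on every array, and the signal software is not named in the sources used. Median intensity was 270.3 to 273.4 (IMCD) and 330.1 to 341.4 (nonIMCD). The 57 control probe sets were left out and 31042 tested with limma 3.58.1 in R 4.3.3 on log2(value + 16), two-sided, with no covariate and Benjamini-Hochberg adjustment; the code was tested on simulated data. Of these probe sets 20826 had 1 symbol in the platform annotation, 436 several and 9780 none; 20758 single symbols were found by identifier in RefSeq.

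The members, gene lists and naming rule were chosen with earlier results of these data known. Named were all genes past the threshold, the 3 highest and lowest differences and the 2 brightest genes per complex, complex II, the isoforms, and up to 4 genes past the threshold per other list; other genes were named after their values were seen. The design speaks of 3 pairs without naming them. Deviations from group means correlated at 0.0401, 0.0350 and 0.0605 between equally numbered arrays over all probe sets, and at 0.135, 0.218 and 0.272 over the 16673 whose mean log2 value exceeded 8; each array correlated best with its own number, so values with the replicate block are given where they change a call. Array number limits the precision.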

Additional observations from a re-analysis of the deposited data

How the results depend on the processing

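The results were recomputed under 15 alternatives. The count of higher genes was 50 with each array centred on its median, 22 with dim probe sets left out, 31 with an intensity trend in the variance, 3 with the replicate block and 21 with the mean over all probe sets of a gene, against 10; without 1 array it was 1 to 8. The count of lower genes, 0, became 1 with log2(value + 64), 1 after quantile normalization, 1 with dim probe sets left out, 2 with the intensity trend and 1 with the replicate block, and 0 to 1 without 1 array. The median over all 87 genes was 0.51 with median centring and 0.098 after quantile normalization. Under these 2 settings, in the same order, the medians were 0.53 and 0.14 for complex I, 0.56 and 0.090 for complex II, 0.58 and 0.11 for complex III, 0.42 and 0.055 for complex IV, and 0.46 and 0.0094 for complex V. Without 1 array the complex IV median was 0.11 to 0.21, the highest without nonIMCD replicate 2. The pseudocount, the block, the variance model and the probe set rules moved no median by more than the spread between arrays. Of the 41 genes recomputed, 0 reversed a call. With the replicate block 33 of the 41 kept their direction and side of the threshold, 7 dropped out and 1 came in. With median centring, which raised every difference, 24 kept their direction and side of the threshold and 12 came in. The other 5 changed direction without passing in either setting. The cause of these shifts was not tested. Signal over background limits the dim isoforms.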
